A study of Homo sapiens with 6 samples.

Results

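A set of 452 transcript models, 2.24% of the 20211 well-covered models of this ribosome profiling series, responded more strongly to RocA in aglaiacized cells than in naive cells. The members were chosen by the size of that response, so the responses given below describe them and carry no test. Of the 452 members, 390 fell and 62 rose under RocA in aglaiacized cells, relative to the median model of the same library. Ribosome footprints were counted in HEK293T-REx cells, a human embryonic kidney line that carries the tetracycline repressor. The naive line had 2 libraries from cells given DMSO, the solvent, and 1 library from cells given RocA, and the aglaiacized line had the same numbers. The sources used here state no dose, no time of exposure and no clone for the aglaiacized line, nor whether the DMSO replicates were grown separately. Summed over distinct models, the DMSO libraries held 18459239 to 28428267 counts and the RocA libraries 8219273 (naive) and 8316797 (aglaiacized).

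RocA, rocaglamide A, is made by plants of the genus Aglaia. It locks the helicase eIF4A, which loads ribosomes onto the 5′ ends of mRNAs, onto polypurine stretches of RNA, and scanning ribosomes are blocked there. Aglaia plants tolerate their own compound because their eIF4A differs from that of other species at residues of the drug pocket. As far as the study is known, eIF4A1 of the aglaiacized line was given such plant residues. The labels do not spell this out, and it could not be checked against the counts, since no table used here pairs the transcript identifiers with gene names. For the same reason no gene, pathway or sequence is given for the members, which are identified by their transcript identifiers or described by their values.

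A transcript model is a set of rows of the deposited tables with the same counts in all 6 libraries, and a well-covered model has a mean count of at least 100. A response is the log2 ratio of the RocA level to the mean DMSO level of the same line, in counts per 1000000 counts of the library (CPM) with a pseudocount of 1, minus the median response of all well-covered models. A member has an aglaiacized response of at least 0.75 in size, which exceeds the size of its naive response by at least 0.4, and a naive response above -1.5. The excess is called the gap here. The median gap of the members was 0.60, with an interquartile range of 0.49 to 0.74, and the largest was 1.496. The members nearest to the gap limit had gaps of 0.402 and 0.402, and the nearest models left out had 0.399 and 0.399. A gap between 0.4 and 0.5 was found in 127 members, and 137 models that met the other limits had a gap between 0.3 and 0.4. The limit on the naive response left out 9 models.

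**Figure D1:**
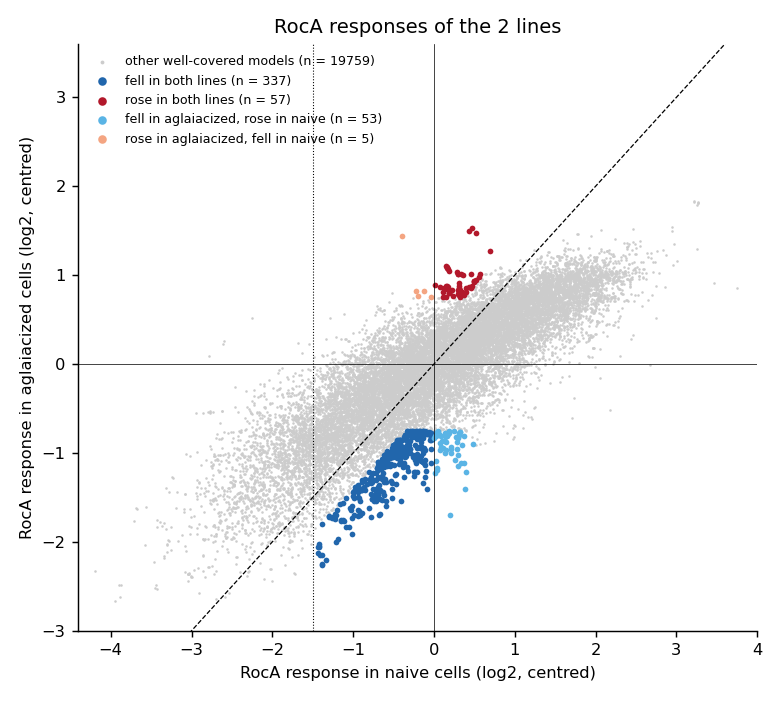
RocA response in naive cells (horizontal axis) against aglaiacized cells (vertical axis), both log2 and centred on the median of well-covered models; each point is 1 transcript model, members are coloured by direction, the dashed line marks equal responses and the dotted line the naive limit of -1.5. The 337 members that fell in both lines form a band below the dashed line, and the 57 that rose in both lines lie above it.

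By direction, 337 members fell in both lines, 57 rose in both, 53 fell in aglaiacized and rose in naive cells, and 5 rose in aglaiacized and fell in naive cells. Falls made up 86.3% of the members. Among all 5714 well-covered models whose aglaiacized response reached 0.75 in size, 2260 rose and 3454 fell. The members were 2.74% of those rises and 11.3% of those falls. With the roles of the lines exchanged, the same limits took 7533 models (37.3% of the well-covered models), of which 4252 rose and 3281 fell in naive cells. A response that was larger in aglaiacized cells was thus far less frequent than the opposite.

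The words rose and fell refer to the median model. Before centring, the median response was -0.56 in naive and -0.24 in aglaiacized cells, in CPM scaled by library totals. Without centring, all 337 members that fell in both lines still fell further in aglaiacized cells, but their median gap was 0.26, and 88 of them kept a gap of 0.4. The naive response turned to a fall in 56 of the 57 members that rose in both lines and in all 53 that fell in aglaiacized cells alone. The rule applied to responses without centring took 278 models, 146 of them members. Scaling by trimmed mean of M-values (TMM) before centring took 432 models, 417 of them members. Centring removes most of a factor per library, so this overlap was nearly fixed in advance.

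The members that fell in both lines had a median response of -1.06 in aglaiacized cells, with an interquartile range of -1.38 to -0.91, and -0.48 in naive cells, with a range of -0.72 to -0.27. Together they held 0.674% and 0.673% of the counts in the naive DMSO libraries and 0.319% (95% Wilson interval 0.316% to 0.323%) in naive RocA. In aglaiacized cells they held 0.753% and 0.780% under DMSO and 0.291% (0.287% to 0.294%) under RocA. The share was therefore highest in aglaiacized DMSO and lowest in aglaiacized RocA, and the DMSO libraries of the lines did not overlap. These intervals cover counting error only. An aglaiacized fall of at least 2-fold was measured in 200 of the 337 members and a naive fall of that size in 36.

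The identified members were taken by a rule of size from the 46 members with a mean count of at least 500. The model uc001adi.4, with a listed length of 339, had 30.6 and 31.8 CPM in naive DMSO and 20.2 CPM in naive RocA. In aglaiacized cells it had 42.2 and 51.1 CPM under DMSO and 17.7 CPM under RocA. Both aglaiacized DMSO libraries were above both naive ones, and each RocA library was below the DMSO libraries of its line. Its response was -1.11 in aglaiacized cells (95% counting interval -1.34 to -0.88) and -0.04 in naive cells (-0.26 to 0.19), a gap of 1.07 (0.75 to 1.39).

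The model uc003ojd.3, with a listed length of 86, showed the same order of libraries. Its levels were 90.9 and 89.1 CPM in naive DMSO and 56.2 CPM in naive RocA. The aglaiacized line had 135.8 and 119.2 CPM under DMSO and 48.3 CPM under RocA. The aglaiacized response was -1.14 (-1.28 to -0.997) and the naive response -0.10 (-0.24 to 0.03), so that the naive change lay within its counting interval of the median model. In both of these models the RocA libraries of the lines were closer to each other in CPM than the DMSO libraries were. Relative to the median model, the aglaiacized minus naive differences were nearer in size. They were -0.43 under RocA and 0.60 under DMSO in uc001adi.4, and -0.46 and 0.53 in uc003ojd.3.

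The largest falls had few counts behind them. The member with the lowest aglaiacized response, -2.26, had a listed length of 724 and went from 13.3 and 13.7 CPM in aglaiacized DMSO to 1.56 CPM in RocA, which was 13 counts. In naive cells the same model went from 11.5 and 11.1 CPM to 2.19 CPM, a response of -1.38. Its gap of 0.88 had a counting interval that began at 0.20. Of the 337 members that fell in both lines, 121 had fewer than 30 counts in the aglaiacized RocA library and 107 had fewer than 30 in the naive one.

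At the other end of depth, 19 members had a mean count of at least 1000. These lay in 13 groups of rows near each other in the files, and 16 fell and 3 rose in aglaiacized cells. The most abundant, with a listed length of 197, had 463.1 and 465.8 CPM in naive DMSO, 266.0 CPM in naive RocA, 479.0 and 416.4 CPM with DMSO in aglaiacized cells, and 218.5 CPM with RocA. The DMSO levels of the lines overlapped in this model, and both RocA libraries were below all DMSO libraries. Its responses were -0.24 in naive and -0.79 in aglaiacized cells.

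The 53 members that fell in aglaiacized cells but not in naive cells had a median response of -0.86 in aglaiacized and 0.18 in naive cells. The rule keeps the size of their naive response at least 0.4 below that of the aglaiacized one, and the largest observed was 0.48. The counting interval of the naive response held 0 in 42 of them, against 17.9% of all well-covered models. A model with a listed length of 54 was the most abundant of them. It went from 186.2 and 181.3 CPM in aglaiacized DMSO to 73.2 CPM in RocA, a response of -1.07. In naive cells it went from 177.6 and 167.5 CPM to 139.2 CPM, a response of 0.26. The DMSO libraries of the lines were close here, and the RocA libraries were far apart.

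The gap of 1.496, the largest of all members, belonged to a model of this group with a listed length of 1130. With DMSO the aglaiacized cells had 9.04 and 7.67 CPM, and with RocA 1.44 CPM, which was 12 counts. In naive cells it had 5.53 and 5.39 CPM under DMSO and 4.01 CPM under RocA. The aglaiacized response was -1.70 (-2.19 to -1.20) and the naive response 0.20 (-0.23 to 0.63).

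The 57 members that rose in both lines had a median response of 0.87 in aglaiacized and 0.31 in naive cells. Their share of the counts was 0.124% and 0.126% in naive DMSO, 0.104% in naive RocA, 0.0858% and 0.0745% in aglaiacized cells with DMSO, and 0.129% with RocA. The aglaiacized RocA library thus stood near the naive DMSO libraries, while the aglaiacized DMSO libraries were the lowest. The rise in naive cells was one relative to the median model, as the share itself was lower in naive RocA than in naive DMSO.

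Among the abundant members, uc010fqi.2, with a listed length of 216, had the largest gap of those that rose. It had 40.7 and 47.5 CPM in naive DMSO, 32.0 CPM in naive RocA, 43.6 and 37.4 CPM in aglaiacized DMSO. Its aglaiacized RocA level was 60.6 CPM. The DMSO libraries of the lines overlapped, and the RocA libraries lay on opposite sides of them. Its response was 0.81 (0.67 to 0.95) in aglaiacized and 0.11 (-0.07 to 0.30) in naive cells, a gap of 0.70 that shrank to 0.12 without centring.

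The model uc003vks.3, with a listed length of 107, had 41.0 and 47.1 CPM in naive DMSO and 36.9 CPM in naive RocA. The aglaiacized levels were 40.6 and 32.4 CPM with DMSO and 54.5 CPM with RocA, the highest of the 6 libraries. The responses were 0.81 (0.66 to 0.95) in aglaiacized and 0.31 (0.14 to 0.49) in naive cells. Its gap of 0.49 fell to 0.35 without aglaiacized DMSO replicate 2 and to 0.40, just under the limit, without naive DMSO replicate 2. Neither rising model met the rule without aglaiacized DMSO replicate 2, with a pseudocount of 5 or without centring, whereas both falling models did under each of these settings.

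**Figure D2:**
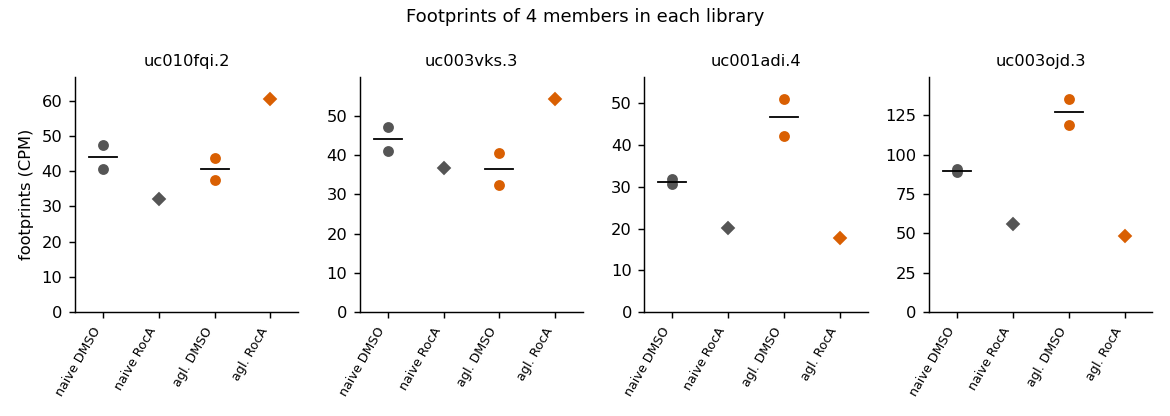
Footprints in CPM (vertical axis, from 0) of 4 members in each library; circles are DMSO libraries (n = 2 per line, with the mean as a bar), diamonds are the single RocA libraries, grey is naive and orange is aglaiacized (agl.). In the 2 models on the left the aglaiacized RocA library is the highest, at 60.6 and 54.5 CPM; in the 2 on the right it is the lowest, at 17.7 and 48.3 CPM.

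The highest rise of all members was 1.52, in a model with a listed length of 2355. It went from 9.09 and 10.4 CPM in aglaiacized DMSO to 25.1 CPM in RocA, and from 18.0 and 19.4 CPM to 17.5 CPM in naive cells, a naive response of 0.47. Models nearby in the files, with listed lengths of 2146 and 879, gave aglaiacized responses of 1.496 and 1.48. In this set the aglaiacized RocA level was above the naive levels and the aglaiacized DMSO level was below them.

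Of the 5 members that rose in aglaiacized and fell in naive cells, 1 had a gap above 1. It had a listed length of 408, with 13.8 and 21.2 CPM in naive DMSO, 8.52 CPM in naive RocA, 7.08 and 5.03 CPM in aglaiacized cells with DMSO, and 15.2 CPM with RocA. Its naive DMSO libraries differed by 0.59 on the log2 scale, while the SD of that difference over all well-covered models was 0.142. The others had gaps of 0.56 to 0.71.

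A larger response in one line can come from the DMSO level, from the RocA level or from both. The aglaiacized minus the naive response is made of the 2 differences between the lines. Its size is the gap in members that moved the same way in both lines. In members with opposite responses it is larger than the gap. For the 53 that fell in aglaiacized cells alone, its median was -1.09 and the median gap was 0.73. For members that rose in both lines, the aglaiacized level under DMSO was lower than the naive one by a median of -0.55 on the log2 scale, relative to all models. Under RocA the median difference was 0.02. The DMSO part was the larger one in 42 of these 57 members. For members that fell in both lines the order was turned, with a median of 0.21 under DMSO and -0.35 under RocA, and the RocA part was the larger one in 202 of 337. The 53 members that fell in aglaiacized cells alone had medians of 0.25 under DMSO and -0.80 under RocA, and the RocA part was larger in 46. These differences use the same libraries as the rule and describe how the aglaiacized minus the naive response is composed. The RocA part rests on 1 library per line. Among all well-covered models with an aglaiacized rise of at least 0.75, the medians were 0.02 under DMSO and -0.55 under RocA. Among those with a fall of that size they were -0.01 and 0.36. Which part was larger was not counted in models other than the members.

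**Figure D3:**
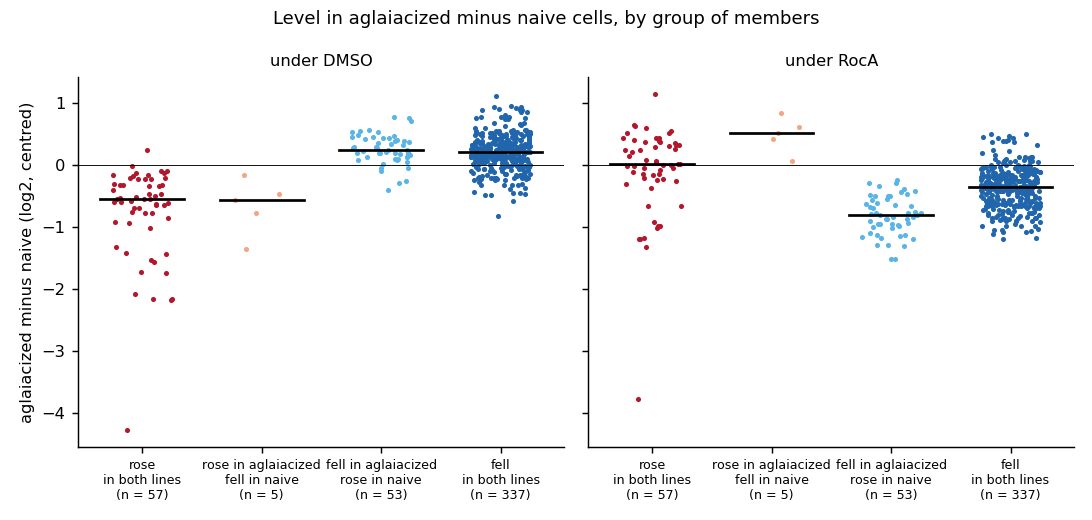
Level in aglaiacized minus naive cells (vertical axis, log2, centred on the median of well-covered models) under DMSO (left) and RocA (right) for the 4 groups of members; each point is 1 member and the bars are medians. Members that rose in both lines lie mostly below 0 under DMSO (median -0.55) and around 0 under RocA (median 0.02). Members that fell lie mostly below 0 under RocA (medians -0.80 and -0.35), with 37 of those that fell in both lines above 0.

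In DMSO, both aglaiacized libraries were below both naive ones in 53 of the 57 members that rose in both lines and above them in 1, against 39.7% and 32.8% of all well-covered models. Of the 337 members that fell in both lines, 195 were above and 43 below. The comparison of the lines in DMSO, with edgeR's quasi-likelihood test over 31237 models, called 228 of the 452 members (50.4%) at an adjusted p under 0.05, against 35.6% of all models. Of these calls 169 were higher in aglaiacized cells, against 19.0% of all models, and 59 were lower, against 16.6%. All 42 calls among the members that rose in both lines were lower, and of 155 calls among those that fell in both, 144 were higher. The rule used these libraries as denominators, so the counts are no independent evidence. In a fit of the well-covered models alone, 224 members were called (49.6%), against 43.1% of those models. Without naive DMSO replicate 1 the number called was 132 (29.2%, against 17.5% of all models) and without replicate 2 it was 120 (26.5%, against 16.8%). DESeq2 called 90 of 417 members that had an adjusted p (21.6%), against 17.6% of models.

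In 14 members, which lie in 8 groups of neighbouring rows, the aglaiacized DMSO level was at least 2-fold below the naive one. This held for 133 of all 20211 well-covered models, and for 43 of the 2260 with an aglaiacized rise of at least 0.75. All 14 members rose in aglaiacized cells, where the DMSO level is the denominator of the response. Their aglaiacized minus naive difference under RocA ran from -3.77 to 0.52 on the log2 scale and was below 0 in most. The most extreme had 21.6 and 21.8 CPM in naive DMSO and 21.7 CPM in naive RocA, and its aglaiacized response of 1.02 rested on 1 and 7 counts in DMSO and 8 in RocA. Its level was thus near 0 in every aglaiacized library. A group of 4 members next to each other in the files stood at 4.12 CPM or less in aglaiacized DMSO against naive DMSO levels of at least 11.1 CPM, and had aglaiacized responses of 0.87 to 1.11. The longest members, with listed lengths of 6898 and 6876, belonged here as well. The first had 11.9 and 12.7 CPM in naive DMSO, 9.98 CPM in naive RocA, 3.75 and 3.87 CPM in aglaiacized cells with DMSO and 7.21 CPM with RocA. Its aglaiacized RocA level lay between the DMSO levels of the lines.

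The tests that share the rule's own contrasts are given for their counts only. The fall or rise under RocA in aglaiacized cells was called by edgeR in all 452 members, against 48.9% of all models, with 390 falls, against 24.3%, and 62 rises, against 24.5%. In naive cells it was called in 215 members (47.6%), against 66.3% of all models, with 194 falls, against 33.9%, and 21 rises, against 32.4%. The difference between the responses was called in 142 members (31.4%), against 25.6% of all models, with 102 calls below 0, against 14.3%, and 40 above, against 11.3%. It was called in 56 of the 337 members that fell in both lines, 35 of the 57 that rose in both, 46 of the 53 that fell in aglaiacized cells alone and all 5 of the remaining ones. The members are all well-covered, and in a fit of the 20211 well-covered models alone the difference was called in 154 members (34.1%) against 35.5% of models, so the members' share was near the background. Without naive DMSO replicate 1 the difference was called in 94 members (20.8%, against 17.8% of all models), and without replicate 2 in 92 (20.4%, against 17.8%). DESeq2 called it in 50 of the 417 members that had an adjusted p (11.99%), against 19.4% of models. For the naive response DESeq2 called 84 members (18.6%), against 49.2%. Each RocA group had 1 library, whose spread was taken to be that of the DMSO pairs, so the line and the single RocA library of that line cannot be told apart.

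The choice of DMSO library moved the membership. Each response was computed against each single DMSO library, which gave 4 pairs of denominators. In all 4, every one of the 452 members kept the direction of its aglaiacized response and had the larger response there. This was nearly fixed in advance, since the rule used the mean of these DMSO libraries and the RocA libraries were the same throughout. The full rule was met in all 4 by 239 members (52.9%), 24 that rose and 215 that fell. Without aglaiacized DMSO replicate 2 the rule took 373 models, 319 of them members, and without replicate 1 it took 593, 411 of them members. Leaving out either naive DMSO library gave 457 and 449 models.

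The aglaiacized DMSO replicates differed in a direction that moved with the groups. Replicate 2 was above replicate 1 in 241 of the 337 members that fell in both lines (71.5%) and in 14 of the 57 that rose in both (24.6%), against 48.8% of all well-covered models. In the naive line the corresponding shares were 50.7% and 50.9%, against 51.8%. The median log2 ratio of replicate 2 to replicate 1 in aglaiacized cells was 0.10 in the members that fell in both lines and -0.18 in those that rose in both. The SD of this ratio over all well-covered models was 0.180. The part of this difference in the membership was not tested beyond leaving out each library.

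Membership was more frequent among models with few counts. Members were 3.36% of the models with a mean count of 100 up to 200, 2.55% of those up to 500, 0.829% of those up to 1000 and 0.613% of those with 1000 or more. The exchanged rule went the other way, from 32.7% to 42.4% of models over the same classes. The median counting error of the gap fell from 0.27 in the lowest class to 0.08 in the highest. The counting interval of the gap lay above 0 in 314 of the 452 members and above the limit of 0.4 in 55. Over all 20211 well-covered models, members included, these numbers were 881 and 59. The DMSO replicates differed by more than counting error gives, with a chi-square per degree of freedom of 2.34 in naive and 6.51 in aglaiacized cells. The counting intervals are therefore too narrow for the spread between libraries. As the members were taken for a large gap, these intervals sit high.

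**Figure D4:**
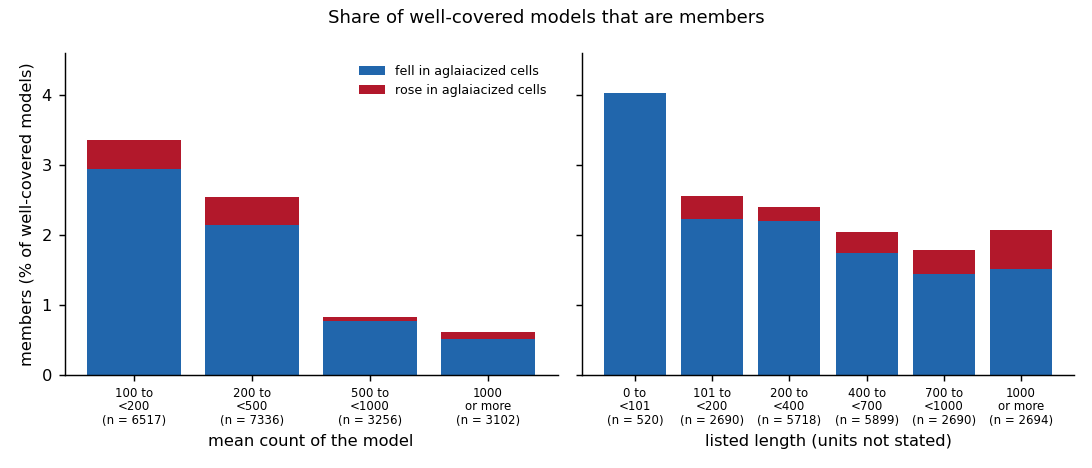
Share of well-covered models that are members (vertical axis, percent) by mean count (left) and by listed length (right), with falls in blue and rises in red; n is the number of well-covered models in each class. The share is 3.36% in the lowest and 0.613% in the highest class of count, and 4.04% in the class of the shortest models, where no member rose.

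Listed length, which the rule did not use, had a median of 398.5 in the members and 445 in all well-covered models. The members that fell in aglaiacized cells had a median of 385.5 and those that rose 589.5. Among well-covered models with an aglaiacized response of the same size, the order was the opposite, with medians of 508 for falls and 403.5 for rises. A length of 100 or less was listed for 21 members (4.65%), all of which fell, and for 2.57% of all well-covered models. A length of 1000 or more was listed for 14 of the 57 members that rose in both lines (24.6%) and for 35 of the 337 that fell in both (10.4%), against 13.3% of all. The order of the medians of the rises and falls turned with a pseudocount of 5, where 10 models rose and 144 fell and the medians were 343 and 352.5. Models of 1 locus can share reads, so the members behind these lengths are not independent.

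Many members stood near each other in the files, but the same grouping was not made for other models. Members within 10 rows of each other were joined, as isoforms of 1 gene tend to stand together, and this gave 258 groups. Of the members, 157 stood alone and 295 lay in the 101 groups with several members. All members rose in 35 groups and all fell in 222, and 1 group held both directions. Within the 101 groups the median range of the aglaiacized response was 0.06, and it was under 0.25 in 84 of them, so members of a group are not separate measurements. The largest groups held 8 members each. In the first, aglaiacized responses ran from -1.73 to -1.38 and naive ones from -1.01 to -0.78, and in the second from -0.93 to -0.75 and from -0.30 to -0.18. When rows nested in a larger neighbour were dropped, the rule took 110 of 5844 models, 95 falling and 15 rising. Such nested rows were 73.0% of the members and 71.1% of all well-covered models.

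Within 10 rows of the members lay 1658 other well-covered models, some of which belong to other loci. Of these, 935 moved in the same direction as the nearest member in aglaiacized cells, and 550 had a larger response in aglaiacized than in naive cells. Responses are centred on the median model, so an even split of directions is the background for the first count. For the second count no share over all models was computed, but the upper quartile of the gap over all well-covered models was -0.02. The models near members had a median gap of -0.23, against -0.32 for all well-covered models. All of these values are footprints alone, in which the amount of an mRNA and its translation cannot be told apart.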

How the data were processed

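The authors deposited raw footprint counts per transcript row for each library, without normalization, together with a whole-number length whose unit is not stated. Per the submitters' processing notes, the build was hg19 and the tools were CASAVA 1.8, Bowtie2 2.1.0 and TopHat2 2.0.9; the counting program is not given in the sources used here. Of 82960 rows, 19269 had no length and held 0 counts. The 50582 rows that had both were merged where their counts were equal, which left 38543 models. The members, groups and tests were chosen with earlier results of these data known.

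Tests used the quasi-likelihood method of edgeR 4.0.16 (R 4.3.3) with TMM factors on the 31237 models whose mean count reached 20, in 1 fit of 4 groups with 2 residual degrees of freedom, two-sided, with Benjamini-Hochberg adjustment. Since separate cultures are not stated, p-values cover the spread between libraries alone, possibly a technical one. Counting intervals are Poisson (95%, delta method) and leave out the spread between libraries, which was larger than counting error. Identified members had a mean count of at least 500, an aglaiacized RocA level outside both DMSO levels, the largest gaps in each direction and at least 50 rows between them. Alternatives were other pseudocounts, count minimums, gaps, scalings and row sets, each DMSO library left out, DESeq2 1.42.0 and a replicate block. The code was tested on simulated data.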

Additional observations from a re-analysis of the deposited data

Results flagged for a closer look

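Both results below concern a difference between the lines in their response to RocA, for which the members were chosen, so neither is independent evidence. The difference between the responses was called by edgeR's quasi-likelihood test in 142 of the 452 members (31.4%), against 25.6% of all models. Without either naive DMSO library the number was lower, both in the members and over all models. In a fit of the well-covered models alone it was called in 34.1% of members and 35.5% of models. Opposite responses in the lines, against every pair of single DMSO libraries, were found in 50 of the 452 members. Of these, 46 fell and 4 rose in aglaiacized cells. This count itself was not tested. No share over all well-covered models was computed, so whether it is high or low is not known. Without centring the number was 56, but the models changed, since the naive response was then a fall in all 53 members that fell in aglaiacized cells alone and in 56 of the 57 that rose in both lines. Both counts rest on 1 RocA library per line.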

How the results depend on the processing

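The rule took 452 models. It took 154 with a pseudocount of 5, 714, 254 and 879 with a minimum mean count of 50, of 200 and none, 110 without nested rows, 747 and 77 with a gap of 0.2 and 0.8, and 278 without centring; without each DMSO library it took 373 to 593. A pseudocount of 0.5 gave 511, unmerged rows 554 and TMM scaling before centring 432. Falls outnumbered rises under each of these settings. The median listed length of the members was 352.5 with a pseudocount of 5, 428 and 382.5 with a minimum mean count of 50 and 200, 315 with a gap of 0.8, 324.5 without centring, and 376 to 410 without each DMSO library; it stayed under that of all models of the same setting throughout. DESeq2 called 84 members for RocA in naive cells (18.6%, against 49.2% of models), 50 for the difference of the responses (11.99% of those with an adjusted p, against 19.4%) and 90 for aglaiacized against naive DMSO (21.6%, against 17.6%); the cause was not tested. Without each DMSO library the calls were 450 to 452 for RocA in aglaiacized cells, 165 to 244 for RocA in naive cells, 92 to 195 for the difference of the responses and 120 to 280 for the DMSO comparison, where fewer libraries remained. The replicate block on the 4 DMSO libraries called 216 members (47.8%) for the lines in DMSO, against 33.9% of all models. Deviations of DMSO libraries with the same number had r = -0.05 over 20211 models, so pairing was not seen, and RocA libraries are unnumbered. Of the members with fewer than 30 counts in aglaiacized RocA, 135 fell and 1 rose, and their responses have wide counting intervals.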
